A study of Rattus norvegicus with 8 samples.

Results

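Each of the 4 circular RNAs (circRNAs) described here spans several kilobases of the rat genome, stands among the 8 most abundant circRNAs of the rat cerebral cortex table, at places 2, 3, 4 and 8, and is accompanied by rarer circRNAs that use the same start or the same end. They lie on chromosome 2 from 20507150 to 20531444 (plus strand), on chromosome 3 from 81127393 to 81143240 (plus strand), on chromosome 7 from 30727478 to 30735182 (plus strand) and on chromosome 2 from 177947848 to 177973555 (minus strand), as positions of the deposited table, whose processing notes name the build Rnor_6.0. A family was taken as each of these dominant circRNAs with every circRNA of the same chromosome and strand that has exactly its start or exactly its end. The 4 families held 53 of the 51995 circRNAs in the table, 12 on the chromosome 2 plus strand, 14 on chromosome 3, 13 on chromosome 7 and 14 on the chromosome 2 minus strand. The 4 dominant circRNAs were selected on their RPM, which was high over all libraries, and the other members by position alone. The circRNAs at places 1, 5, 6 and 7 are not among the 4, so level alone did not choose them. The levels of the 4, their stability and their shares of the families are therefore given as a description. Genes and sequences at these positions were not analysed here.

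A circRNA forms when a splice donor at the end of an exon is joined backwards to a splice acceptor at the start of the same or an earlier exon. The closed ring has no free end for exonucleases, and many circRNAs are long-lived and abundant in neurons. Reads that cross the back-splice junction identify a circRNA, so a start and an end give its 2 splice sites and the genomic span between them, not the length of the spliced ring, from which introns are usually removed. A circRNA that shares the acceptor of another closes at a different donor, and one that shares the donor closes at a different acceptor. On the plus strand the start is the acceptor side and the end the donor side, and on the minus strand this is reversed.

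Rats with moderate traumatic brain injury (mTBI, 4 libraries) were set against sham rats (4 libraries). Total RNA was taken 24 h after the injury from cortex around the injured site, or from the matching site of sham rats, after perfusion with cold saline. Values are RPM, reads scaled to the size of the library. No label used here gives strain, age or sex, and the table names no genes, so the tissue could not be compared with marker genes. All circRNAs of a library summed to between 4966 and 5874 RPM, which is 384910 to 452692 reads across junctions if the smallest listed value stands for 2 reads. Permutation p-values measure the spread between these 8 cortex samples. Limma p-values and intervals also draw on the variances of the other circRNAs tested, and do not give the spread of a single circRNA. In tissue samples a change in cell numbers and a change in RNA per cell cannot be told apart.

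The dominant circRNA was the highest of its family in 8 of 8 libraries in all 4 families. Its mean level was 39.1 times that of the second circRNA on the chromosome 2 plus strand, 21.2 times on chromosome 3 and 20.9 times on the chromosome 2 minus strand. On chromosome 7 it was only 2.53 times the second, which reached at most 49.95% of its level in any library. Spans of the dominant circRNAs were 24295, 15848, 7705 and 25708 bases for chromosome 2 plus, 3, 7 and 2 minus, against a median of 12157 bases in the whole table. The chromosome 7 circRNA is thus shorter in span than most, with 37.6% of the table below it. Together the 4 made up 2.95%, 2.97%, 3.05% and 2.99% of all circRNA RPM in mTBI replicates 1 to 4, against 3.02%, 3.04%, 2.93% and 2.82% in sham replicates 1 to 4.

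Apart from the second circRNA on chromosome 7, the 49 other circRNAs were far rarer, and many were not listed in every library. Of them, 14 were listed above 0 in all 8 libraries and 17 in a single library, where the whole table had 17.5% and 39.5% in these classes and the 49 had 28.6% and 34.7%. They shared the acceptor of the dominant circRNA in 25 cases and the donor in 24. In span they ran from 2613 to 97614 bases, with 37 longer and 12 shorter than the dominant circRNA they belong to. No circRNA of the opposite strand overlapped any of the 4 dominant circRNAs, and the same-strand overlapping circRNAs outside the families, 4 on the chromosome 2 plus strand, 3 on chromosome 3, 4 on chromosome 7 and 4 on the chromosome 2 minus strand, were all linked to a family through other shared ends.

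**Figure D1:**
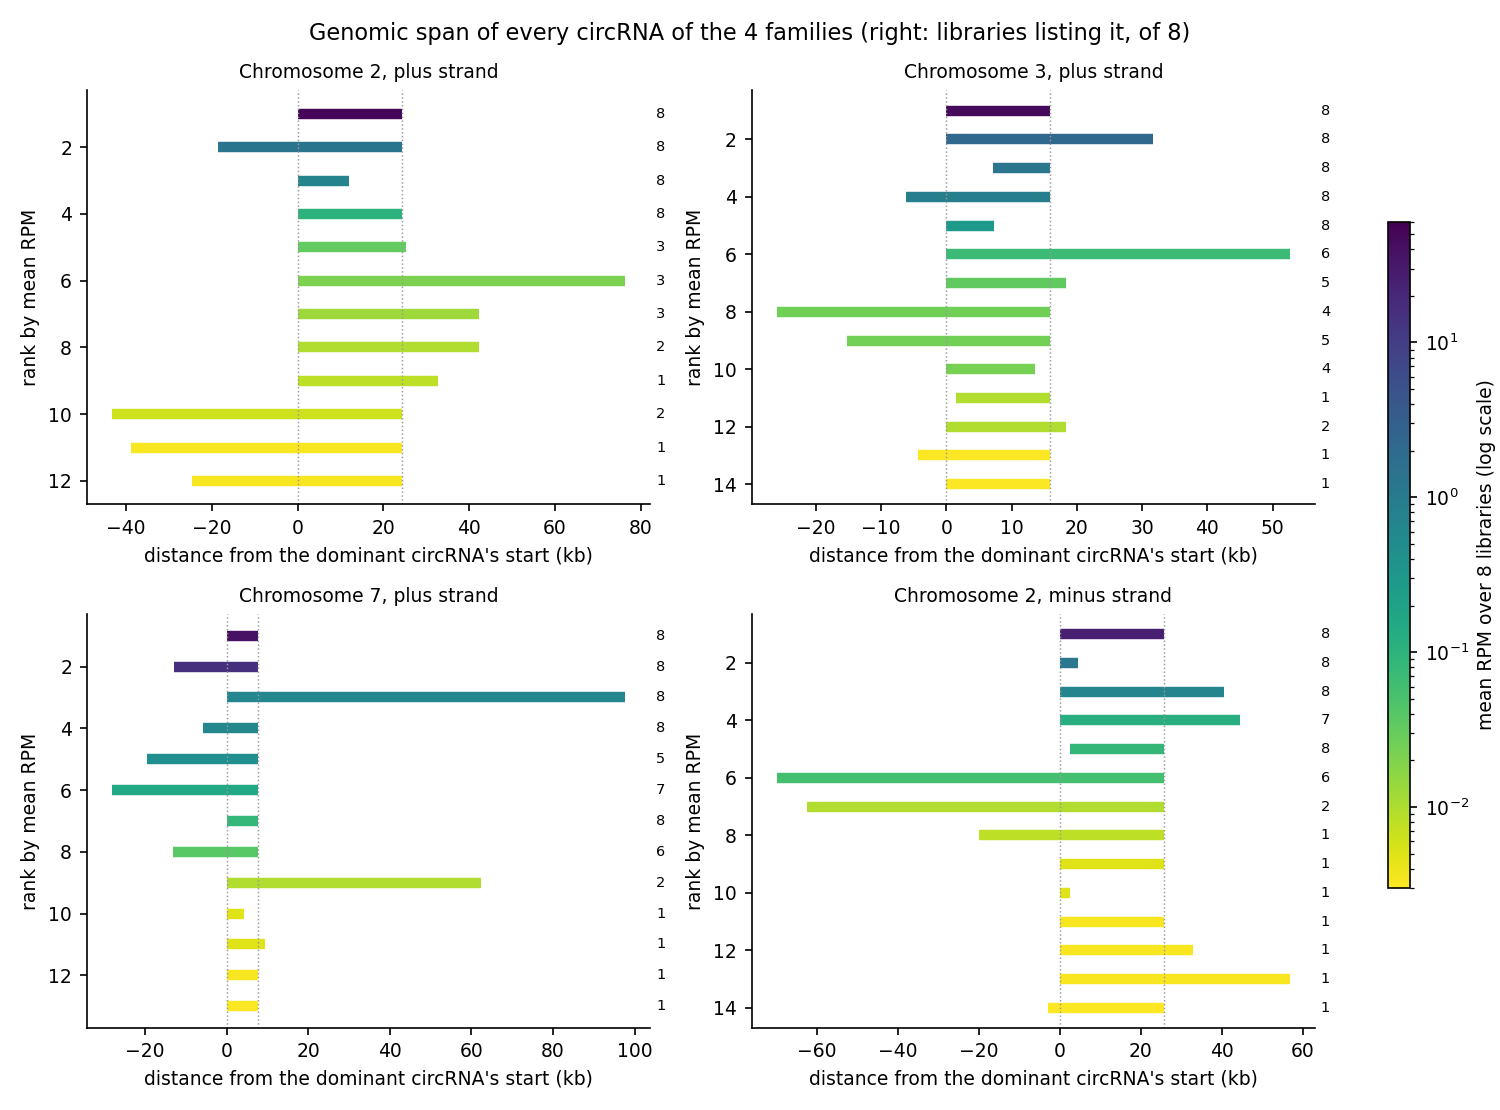
Genomic span of each of the 53 circRNAs as a bar, by distance in kilobases from the start of the dominant circRNA (x axis) and rank by mean RPM (y axis), in 1 panel per family. Dotted lines mark the start and end of the dominant circRNA, colour gives the mean RPM over 8 libraries on a log scale, and the numbers at the right give how many of 8 libraries list the circRNA: in each family the darkest bar stands above paler ones, with a dark second bar on chromosome 7.

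On the plus strand of chromosome 2, the dominant circRNA stood at 49.2, 51.0, 54.2 and 55.8 RPM in mTBI replicates 1 to 4, against 49.7, 50.2, 49.5 and 52.5 RPM in sham replicates 1 to 4. The groups overlapped, and the highest library of all, mTBI replicate 4, was 1.13 times the lowest. The mean was 52.6 ± 2.98 RPM in mTBI and 50.5 ± 1.39 RPM in sham (SD, n = 4 each), a log2 change of 0.06 with a 95% interval of -0.15 to 0.26 (limma, adjusted p = 0.99998). On the scale of folds, the interval runs from 0.901 to 1.20. Its share of the family was 95.5%, 95.7%, 96.3% and 95.1% in mTBI replicates 1 to 4, against 96.4%, 96.8%, 95.1% and 96.0% in sham replicates 1 to 4. Across all 8 libraries the share stayed within 1.77 percentage points.

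The second circRNA of this family, from 20488617 to 20531444, keeps the donor and takes an acceptor farther upstream. It stood at 1.73, 1.52, 0.938 and 1.92 RPM in mTBI, and at 0.892, 0.800, 1.89 and 0.851 RPM in sham. Of the 4 mTBI libraries 3 were above 1.5 RPM, as was sham replicate 3, so the groups overlapped (limma log2 change 0.50, SE 0.23, unadjusted p = 0.0394, adjusted p = 0.973). Next in level, the circRNA from 20507150 to 20519067 keeps the acceptor and closes at an earlier donor. It stood at 0.413, 0.617, 1.003 and 0.623 RPM in mTBI, and at 0.775, 0.708, 0.479 and 1.096 RPM in sham. The 4 libraries in which the second circRNA was above 1.5 RPM, mTBI replicates 1, 2 and 4 and sham replicate 3, were the 4 in which the circRNA from 20507150 to 20519067 was lowest. This split runs across both groups, was noticed in the data and was not tested. A circRNA from 20507155 to 20531444 differs from the dominant one by 5 bases at the start and stood at 0.0516 to 0.156 RPM in mTBI and 0.0647 to 0.168 RPM in sham.

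Among the 8 rarer circRNAs of this family, each listed in 1 to 3 libraries, the one from 20507150 to 20532525 was picked out after its values were seen. It was listed at 0.0774, 0.0643, 0 and 0.117 RPM in mTBI replicates 1 to 4 and at 0 in 4 of 4 sham libraries. With 3 libraries above 0 it was not tested, and the mTBI library listed at 0 lies with the sham libraries.

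On chromosome 3, the dominant circRNA stood at 40.9, 42.2, 47.4 and 51.6 RPM in mTBI replicates 1 to 4, against 50.8, 42.7, 46.5 and 46.1 RPM in sham replicates 1 to 4. Both the lowest and the highest library were mTBI libraries. The mean was 45.5 ± 4.95 RPM in mTBI and 46.5 ± 3.30 RPM in sham (SD, n = 4 each), a log2 change of -0.04 with a 95% interval of -0.26 to 0.19 (limma, adjusted p = 0.99998). Its share of the family was 90.1%, 89.8%, 90.3% and 91.3% in mTBI, against 91.7%, 90.6%, 91.0% and 90.6% in sham, a range of 1.86 percentage points. The highest level was 1.26 times the lowest.

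The other circRNAs of the chromosome 3 family were spread over both ends, with 55.4% of their summed RPM on circRNAs that share the acceptor. The second, from 81127393 to 81159096, passes the dominant donor and stood at 1.82, 2.42, 2.34 and 2.70 RPM in mTBI and 2.09, 2.07, 2.10 and 1.86 RPM in sham. The groups overlapped through mTBI replicate 1 (limma log2 change 0.18, SE 0.16, adjusted p = 0.973). The circRNA from 81134588 to 81143240 starts inside the dominant circRNA and averaged 1.16 ± 0.114 RPM in mTBI and 1.18 ± 0.232 RPM in sham (SD, n = 4 each), and its log2 change was 0.00 (SE 0.18). Another, from 81121255 to 81143240, starts upstream of it and averaged 0.822 ± 0.195 RPM in mTBI and 0.910 ± 0.107 RPM in sham (SD, n = 4 each). A rarer one, from 81127393 to 81145711, was listed in 5 libraries, at 0.0387, 0, 0.0391 and 0 RPM in mTBI and at 0.0904, 0.0655, 0 and 0.0387 RPM in sham. Values this close to the smallest listed value do not resolve a difference between groups. Of the remaining 9 chromosome 3 circRNAs, that from 81127393 to 81134731 was listed in 8 of 8 libraries with a mean of 0.298 RPM, and the other 8 had means of at most 0.0697 RPM.

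On chromosome 7, the dominant circRNA stood at 36.2, 34.6, 39.2 and 40.3 RPM in mTBI replicates 1 to 4, against 37.8, 37.8, 37.6 and 39.3 RPM in sham replicates 1 to 4. The sham values lay inside the range of the mTBI values. The mean was 37.6 ± 2.62 RPM in mTBI and 38.1 ± 0.763 RPM in sham (SD, n = 4 each), a log2 change of -0.02 with a 95% interval of -0.24 to 0.19 (limma, adjusted p = 0.99998). Its share of the family was 72.9%, 72.1%, 72.7% and 66.1% in mTBI, against 65.3%, 70.3%, 70.6% and 64.2% in sham. This share was both lower and less even than in the other 3 families, with a range of 8.75 percentage points.

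The spread of the share on chromosome 7 went with the second circRNA, from 30714506 to 30735182, which keeps the donor and takes an acceptor upstream. It stood at 11.9, 11.98, 12.5 and 18.7 RPM in mTBI, and at 18.3, 13.9, 13.1 and 19.6 RPM in sham. The libraries fell into a higher set, with mTBI replicate 4 and sham replicates 1 and 4 at 18.3 to 19.6 RPM, and a lower set of the other 5 at 11.9 to 13.9 RPM, while the dominant circRNA in the higher set was at 40.3, 37.8 and 39.3 RPM. Summed circRNA RPM was 5874, 5514 and 5610 in those 3 libraries and 4966 to 5540 in the others. Their part in the pattern was not tested. The groups overlapped (limma log2 change -0.24, SE 0.15, adjusted p = 0.973). At 31.8% to 49.95% of the level of the dominant circRNA, it is the only circRNA of the 4 families, other than the dominant ones, above 5.74% of its dominant circRNA in any library.

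The remaining chromosome 7 circRNAs were each under 1 RPM. The circRNA from 30727478 to 30825091 has the widest span of all 53 and averaged 0.586 ± 0.125 RPM in mTBI and 0.687 ± 0.133 RPM in sham (SD, n = 4 each). That from 30721656 to 30735182 averaged 0.634 ± 0.105 RPM in mTBI and 0.599 ± 0.176 RPM in sham (SD, n = 4 each). The circRNA from 30699478 to 30735182 had the smallest unadjusted p of the 4 families. It stood at 0.284, 0.141, 0.0261 and 0 RPM in mTBI, against 0.207, 0.275, 0.181 and 0.168 RPM in sham, so that mTBI replicate 1 was above 4 of 4 sham libraries (limma log2 change -1.33, SE 0.52, unadjusted p = 0.0157, adjusted p = 0.973). The circRNA from 30708031 to 30735182, picked out after its values were seen, was either well listed or listed at 0. It stood at 0, 0, 0.664 and 0.805 RPM in mTBI and at 0, 0.603, 0.660 and 0.799 RPM in sham (limma adjusted p = 0.973). The other 7 had means of at most 0.0811 RPM.

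The dominant circRNA of the chromosome 2 minus strand stood at 20.2, 20.9, 28.2 and 28.0 RPM in mTBI replicates 1 to 4, against 28.4, 25.9, 25.6 and 20.03 RPM in sham replicates 1 to 4. A set of 3 libraries, mTBI replicates 1 and 2 and sham replicate 4, lay at 20.03 to 20.9 RPM, and the other 5 at 25.6 to 28.4 RPM. The mean was 24.3 ± 4.36 RPM in mTBI and 24.97 ± 3.52 RPM in sham (SD, n = 4 each), a log2 change of -0.04 with a 95% interval of -0.31 to 0.22 (limma, adjusted p = 0.99998). Its share of the family was 92.8%, 92.9%, 91.8% and 92.4% in mTBI, against 92.0%, 90.3%, 91.8% and 92.4% in sham. The share ranged over 2.55 percentage points although the highest level was 1.42 times the lowest.

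The second circRNA of this family, from 177947848 to 177952286, keeps the donor of the dominant one and closes at an acceptor inside it. It stood at 0.748, 0.952, 1.45 and 1.41 RPM in mTBI, and at 1.38, 1.42, 1.27 and 0.799 RPM in sham. Its 3 lowest libraries were the same 3 in which the dominant circRNA was lowest, and it held 3.70% to 5.47% of the level of the dominant circRNA throughout. The circRNA from 177947848 to 177988315 reaches an acceptor upstream of the dominant one and stood at 0.684, 0.476, 0.808 and 0.506 RPM in mTBI, and at 0.646, 0.786, 0.815 and 0.632 RPM in sham. Its 3 lowest libraries were mTBI replicates 2 and 4 and sham replicate 4 (limma log2 change -0.23, SE 0.22, adjusted p = 0.976). Of these, mTBI replicate 2 and sham replicate 4 were also among the 3 lowest of the dominant circRNA, and mTBI replicate 4 was not. From 177947848 to 177992202, a circRNA was listed at 0, 0.0515, 0.130 and 0.143 RPM in mTBI and at 0.220, 0.288, 0.0388 and 0.0645 RPM in sham. Of the remaining 10, that from 177950350 to 177973555 was listed in 8 of 8 libraries with a mean of 0.0858 RPM, that from 177878125 to 177973555 in 6 with a mean of 0.0584 RPM, and the other 8 in 1 or 2 libraries.

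**Figure D2:**
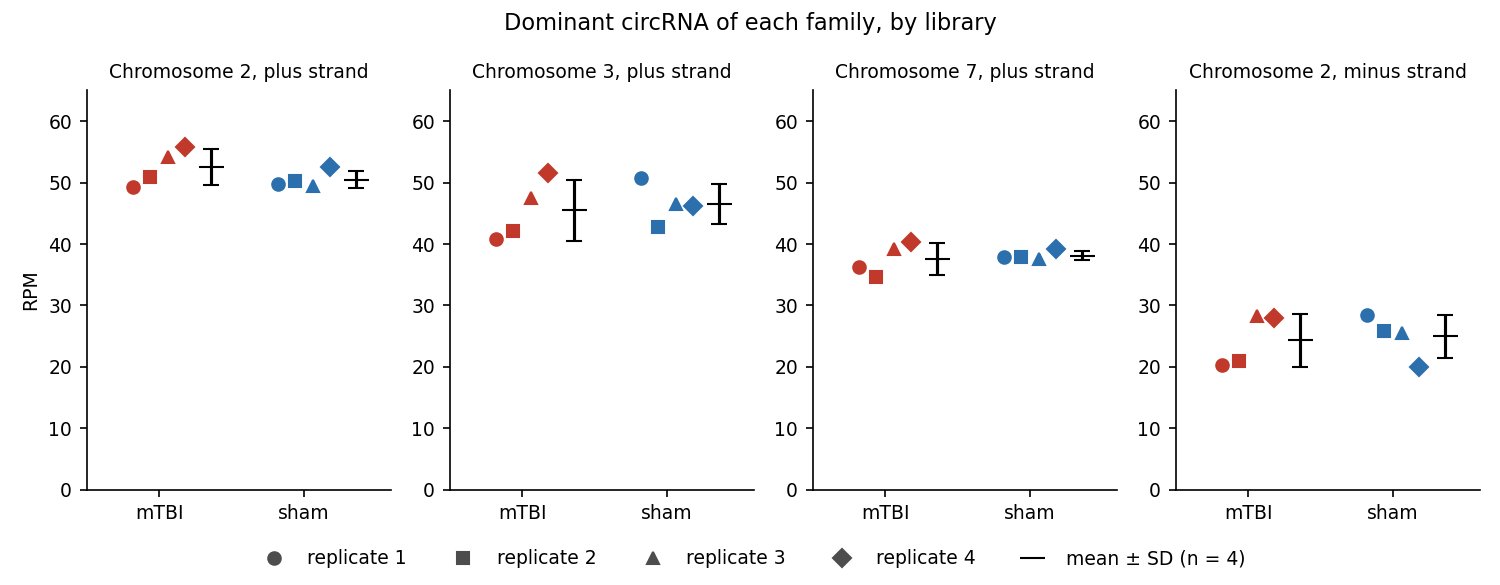
Level of each dominant circRNA in RPM (y axis, from 0) in the 4 mTBI and 4 sham libraries, 1 panel per family, with the marker shape giving the replicate and black bars the mean and SD (n = 4). The groups overlap in every panel, and the chromosome 2 minus-strand circRNA has 3 libraries at 20.03 to 20.9 RPM below the other 5.

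**Figure D3:**
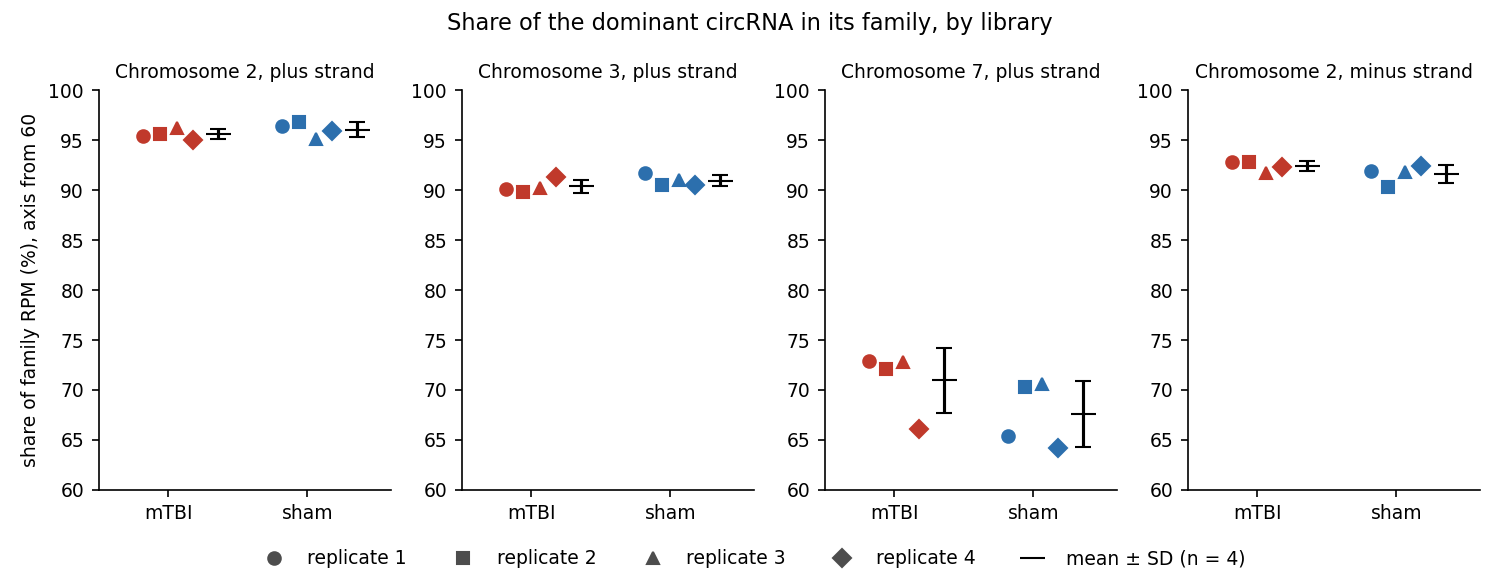
Share of the dominant circRNA in the summed RPM of its family (y axis in percent, from 60) in the same libraries, with mean and SD (n = 4). Shares lie between 89.8% and 96.8% in 3 families and between 64.2% and 72.9% on chromosome 7.

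The next comparison asked whether the balance inside a family differed between injured and sham cortex. The share of the dominant circRNA averaged 95.6% ± 0.503 in mTBI and 96.1% ± 0.732 in sham on the chromosome 2 plus strand, and 90.4% ± 0.647 in mTBI and 91.0% ± 0.530 in sham on chromosome 3 (SD, n = 4 each). On chromosome 7 it averaged 71.0% ± 3.29 in mTBI and 67.6% ± 3.32 in sham, and on the chromosome 2 minus strand 92.5% ± 0.506 in mTBI and 91.6% ± 0.909 in sham (SD, n = 4 each). The differences, -0.466, -0.574, 3.36 and 0.840 percentage points in that order, did not pass (exact two-sided permutation test, p = 0.314, 0.257, 0.171 and 0.20, adjusted over the 4 families p = 0.314 for each). Counting error alone puts a single library's share within 0.547 to 1.44 percentage points either way (Wilson 95% interval, each side). The smallest p that 4 against 4 libraries allow is 0.0286. After adjustment over the 4 families, a single family at that p would not pass 0.05 unless other families were also low. These tests could therefore hardly pass for a difference in a single family, and they do not show that the shares are equal.

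With the dominant circRNA set aside, the other circRNAs of a family summed to 2.41 ± 0.341 RPM in mTBI and 2.06 ± 0.396 RPM in sham on the chromosome 2 plus strand. They summed to 4.82 ± 0.264 RPM in mTBI and 4.61 ± 0.150 RPM in sham on chromosome 3, to 15.6 ± 3.50 RPM in mTBI and 18.4 ± 3.08 RPM in sham on chromosome 7, and to 2.001 ± 0.490 RPM in mTBI and 2.30 ± 0.478 RPM in sham on the chromosome 2 minus strand (SD, n = 4 each). None of these differences passed (exact two-sided permutation test, p = 0.229, 0.286, 0.20 and 0.40, adjusted p = 0.381, 0.381, 0.381 and 0.40). The limit given above for the shares, that a single family could hardly pass after adjustment, holds for these sums too.

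Of the 53 circRNAs, 28 were listed in at least 4 of 8 libraries and tested, the 4 dominant ones among them. None of the 28 passed an adjusted p of 0.05 (limma), where 0.0248% of all 20174 circRNAs tested did. At an unadjusted p under 0.05 there were 2 of 28, against 4.68% of all tested, and the mTBI and sham values failed to overlap for 0 of 28, against 2.81% of all tested. The log2 change was below 0 for 20 of the 28 and above 0 for 8, with a median of -0.19 and a range of -1.33 to 0.50. Over all tested it was below 0 for 10481 and above 0 for 9693, with a median of -0.02. The 28 come from 4 families in the same 8 libraries, so their directions are not independent, and this count was not tested. Some of the negative changes are poorly resolved, as for 2 rarer chromosome 7 circRNAs with -1.33 (SE 0.52) and -1.15 (SE 0.87). Limma voom on reads, added after the data were seen, passed 0 of the 28 and 3 circRNAs in the whole table (0.0149%), and 3 of the 28 had an unadjusted p under 0.05, against 5.21% of all tested.

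**Figure D4:**
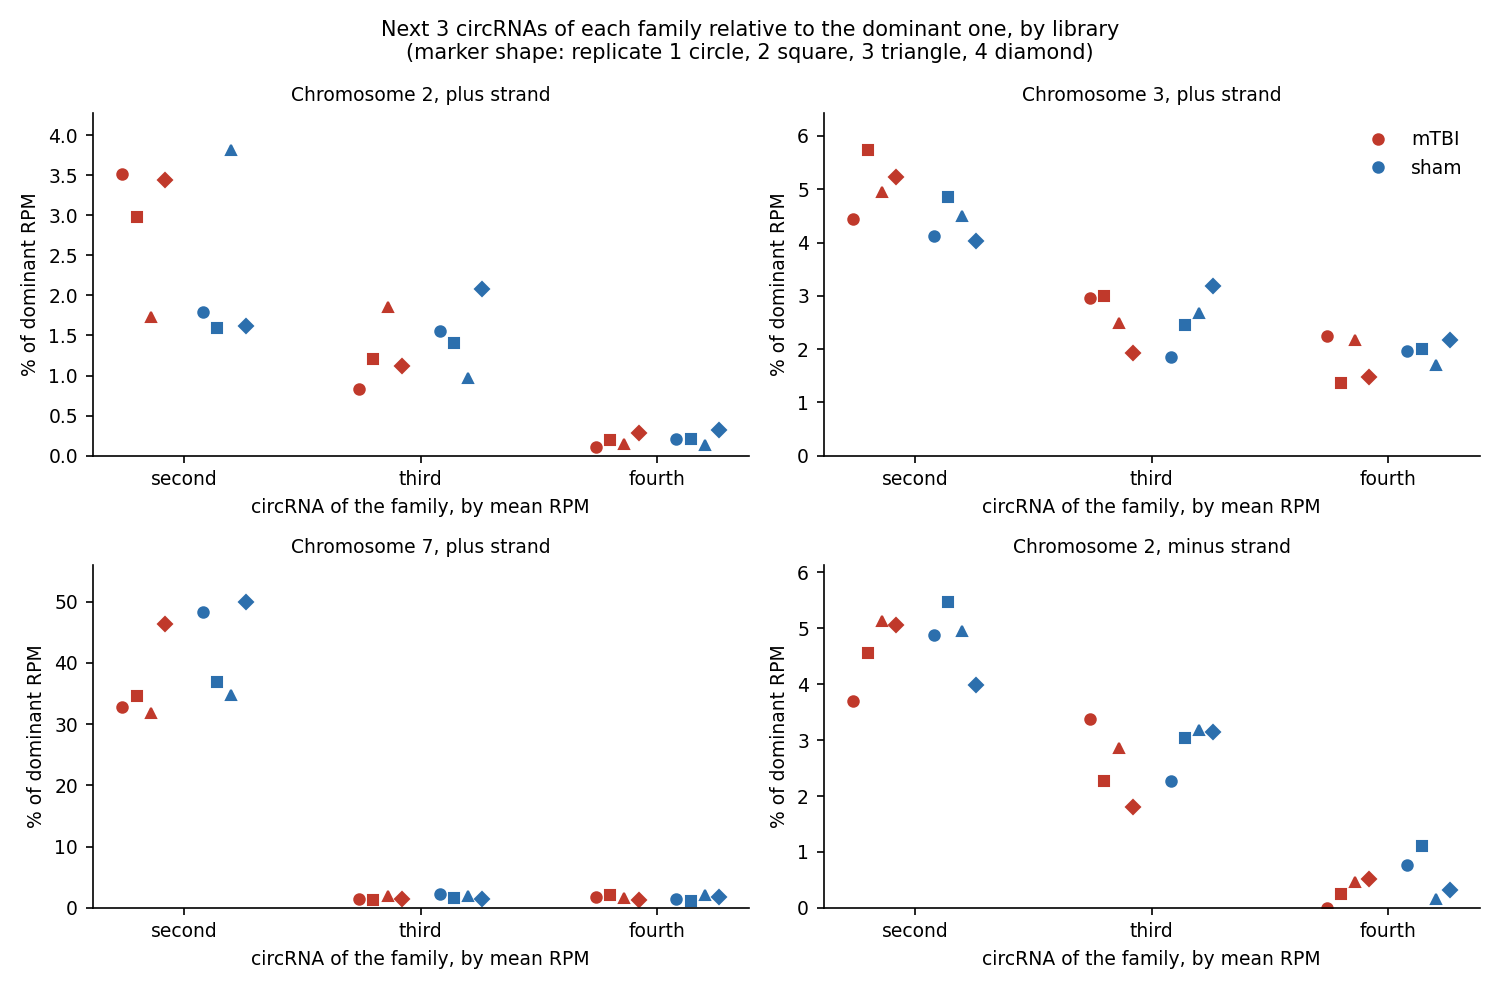
Level of the 3 next most abundant circRNAs of each family as a percentage of the dominant circRNA (y axis, from 0, scaled per panel) in mTBI and sham libraries, with the marker shape giving the replicate. On chromosome 7 the second circRNA lies at 31.8% to 49.95% with 3 libraries above the rest, and in the other families no circRNA is above 5.74%.

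Sharing an end allowed the levels by donor and the levels by acceptor to be read separately. These are levels of junction reads, and how often the splicing itself used a donor or an acceptor was not measured. Among circRNAs that use its acceptor, the dominant circRNA took 98.5% ± 0.398 on the chromosome 2 plus strand, 94.6% ± 0.529 on chromosome 3, 98.3% ± 0.347 on chromosome 7 and 99.3% ± 0.139 on the chromosome 2 minus strand (SD over 8 libraries). Among circRNAs that use its donor, it took 97.3% ± 0.902, 95.6% ± 0.585, 70.1% ± 3.62 and 92.6% ± 0.786 in the same order. The chromosome 7 family was therefore nearly uniform in its donor and mixed in its acceptor. Of the RPM of the other circRNAs, those sharing the acceptor made up 3.899% on chromosome 7 and 8.07% on the chromosome 2 minus strand, against 35.8% on the chromosome 2 plus strand and 55.4% on chromosome 3.

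Some other acceptors met the same donors in other proportions. On the chromosome 2 plus strand, the donor at 20519067 had 1.39% of the level of the donor at 20531444 when joined to the dominant acceptor, and 17.1% when joined to the acceptor at 20488617. On that strand the circRNA from 20488617 to 20519067 averaged 0.225 RPM and was listed in 8 of 8 libraries. On chromosome 3, the donor at 81159096 had 4.72% of the level of the donor at 81143240 with the dominant acceptor, 15.5% with the acceptor at 81134588 and 0.934% with that at 81121255. On chromosome 7, the donor at 30789832 had 0.0256% of the level of the donor at 30735182 with the dominant acceptor and 0.162% with the acceptor at 30714506. On the chromosome 2 minus strand, the acceptor at 177992202 averaged 0.157 RPM with the donor at 177973472 and 0.117 RPM with the dominant donor at 177947848, but the order was turned in sham replicates 1 and 2 and the values were equal in mTBI replicate 3. These are ratios of means over 8 libraries, and those under 1% rest on circRNAs listed in 4 libraries or fewer.

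Starts of some circRNAs lay a short way before the ends of others in the same locus, closer than 300 bases. Such segments measured 85 bases on the chromosome 2 plus strand (20531360 to 20531444), 144 bases on chromosome 3 (81134588 to 81134731) and 297 bases on chromosome 7 (30714506 to 30714802). On the chromosome 2 minus strand there were 4, of 178, 132, 111 and 84 bases, the last from 177973472 to 177973555, at the acceptor end of the dominant circRNA. Both boundaries of each segment were listed as ends of circRNAs, by different circRNAs, but some rest on few reads. The start at 20531360 and the end at 177950460 each come from a circRNA listed in 1 library. The start at 177885368 comes from a circRNA listed in 2 libraries. No exon annotation of this build was used here, so the segments were not matched to exons.

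Of the 49 other circRNAs, 7 had both ends within 50 bases of those of their dominant circRNA. The differences were 5 bases at the start for 1 on the chromosome 2 plus strand, 29 bases at the start for 1 on chromosome 3, and 3 or 4 bases at either end for 3 on chromosome 7. On the chromosome 2 minus strand they were 5 and 45 bases at the start. Only those from 20507155 to 20531444 and from 30727482 to 30735182 were listed in 8 of 8 libraries, at 0.201% and 0.214% of the mean level of their dominant circRNA, and the other 5 were listed in 1 library each. Whether these are separate splice sites or shifted alignments of the same junction was not tested.

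Stability over the libraries differed between the 4. The coefficient of variation (SD over mean) was 5.67% in mTBI and 2.76% in sham on the chromosome 2 plus strand, 10.9% in mTBI and 7.09% in sham on chromosome 3, 6.98% in mTBI and 2.002% in sham on chromosome 7, and 17.9% in mTBI and 14.1% in sham on the chromosome 2 minus strand. Over all 8 libraries it was 4.69%, 8.54%, 4.78% and 14.9%, where counting error alone would give 1.59%, 1.68%, 1.85% and 2.29%. Counts were 1554 to 4299 reads per library and circRNA. Scaled to the summed circRNA RPM of each library, the coefficients were 4.23%, 3.89%, 2.69% and 12.5%. That scaling took the chromosome 3 value to less than that of the chromosome 2 plus-strand circRNA, and left the chromosome 2 minus-strand circRNA the most variable of the 4.

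Set beside all 34 circRNAs with a mean of at least 10 RPM, the 4 were not alike. The chromosome 2 plus-strand and chromosome 7 circRNAs had the lowest and second lowest coefficients of variation of the 34, that of chromosome 3 was the 11th from the lowest, and that of the chromosome 2 minus strand the 29th. These places rest on the RPM values from which the 4 were chosen, and are a description. The 2 with the lowest coefficients, 4.69% and 4.78%, stood at places 2 and 4 in level, where counting error is smaller than for most of the 34. Counting error alone would give 1.59% and 1.85% for these 2, and the median coefficient of the 34 was 10.4%. Whether level accounts for their low coefficients was not tested. After scaling to summed circRNA RPM, places by coefficient of variation were 3, 1, 2 and 27 for chromosome 2 plus, 7, 3 and 2 minus. Shares computed in the same way for all 34 ranged from 26.3% to 100%, with a median of 86.5%, and 13 of the 34 were over 90%. From the highest, the 4 stood at place 7 (chromosome 2 plus), 12 (chromosome 3), 26 (chromosome 7) and 10 (chromosome 2 minus). High shares were thus common among these 34, but they were chosen for a high level, which itself raises a share. The circRNAs at 100% shared no end with any other circRNA. The 34 also include the second chromosome 7 circRNA, at 27.7%. The share of the dominant chromosome 7 circRNA was below the median.

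**Figure D5:**
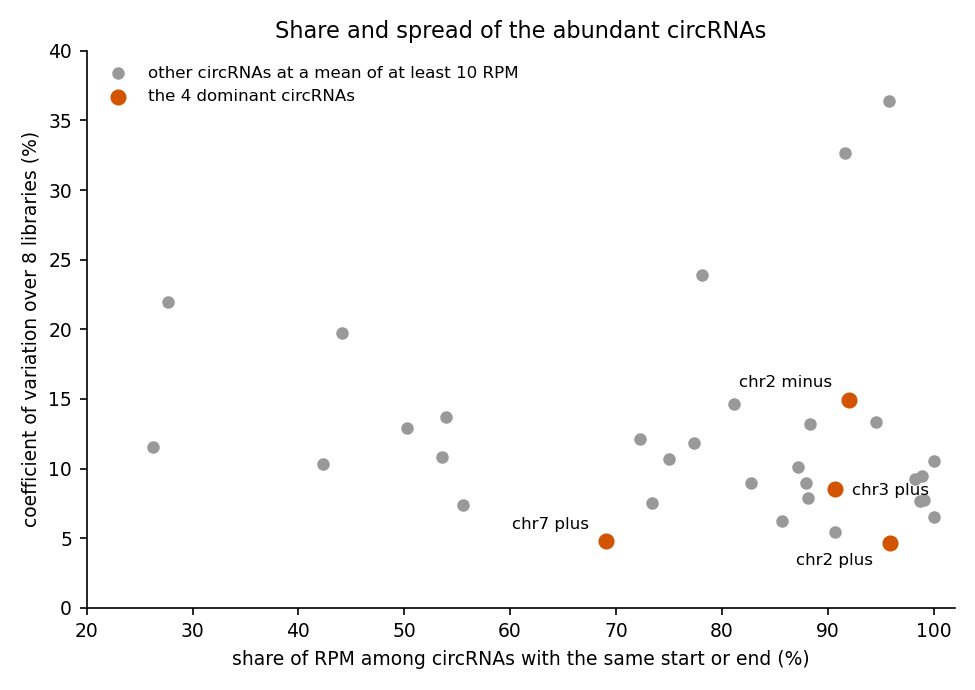
Coefficient of variation over 8 libraries (y axis, percent) against the share of RPM among circRNAs with the same start or end (x axis, percent) for the 34 circRNAs with a mean of at least 10 RPM, each a point, with the 4 dominant circRNAs coloured. The chromosome 2 plus-strand and chromosome 7 circRNAs lie lowest, at 4.69% and 4.78%, and chromosome 7 has the smallest share of the 4.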

How the data were processed

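The authors deposited 1 table of RPM values, which per the file headers has a column for each of 8 libraries and names each circRNA by its position and strand. Per the submitters' processing notes, Trimmomatic 0.36, DESeq and the build Rnor_6.0 were used. For the aligner, the circRNA caller and the counting of reads, nothing is given in the sources used here. Per the labels, ribosomal RNA was removed, libraries keep strand, and RNA had an integrity number of at least 7. Values above 0 are whole multiples of 0.5 times the smallest one within 0.01 read, so that the smallest was taken as 2 reads, which the steps allow but do not prove. A circRNA listed at 0 may therefore have had 1 read, none, or no call.

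circRNAs listed in at least 4 of 8 libraries were fitted with limma 3.58.1 in R 4.3.3 on log2(RPM + 0.0259), with a variance trend, two-sided, and Benjamini-Hochberg adjusted over all 20174 tested. Changes are on that scale, where those of low circRNAs come out too small. Shares and sums were compared with exact permutation tests over 70 assignments of libraries, in Python 3.11.15 with scipy 1.17.1. Spans count both end positions. The members, lists, tests and alternatives were chosen with earlier results of these data known. Named are the 4 dominant circRNAs and, per family, the 3 next by mean level and the 2 others with the smallest p, and any others given values were picked out afterwards. Counting intervals are Wilson 95% intervals and cover counting error only. The edgeR test listed as an alternative was not run, since the table holds RPM and not counts, and limma voom on the reads inferred above was added instead. The limma fit was tested on simulated counts, and the exact tests on values with known answers and against a scipy function. Host genes were not assigned, because the RefSeq tables used here are on GRCr8 and not on Rnor_6.0. Same-numbered libraries did not deviate together over all tested circRNAs (correlations of -0.00355 to 0.00672), and no label pairs them.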

Additional observations from a re-analysis of the deposited data

Results flagged for a closer look

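In 52 groups of 4 libraries, covering levels of the named circRNAs and the shares and sums of the families, 5 had 1 library far from the other 3, as judged by its gap to the nearest of them over the whole range (Dixon's ratio, 95% value for 4 samples). Chance flags about 1 group in 20, or 2.6 of 52, and several of these groups share reads. Sham replicate 3 had 1.89 RPM of the chromosome 2 plus-strand circRNA from 20488617 to 20531444, and the other sham libraries had 0.800 to 0.892 RPM (ratio 0.916). Sham replicate 4 had 1.86 RPM of the chromosome 3 circRNA from 81127393 to 81159096, and the others had 2.07 to 2.10 RPM (ratio 0.895). The dominant chromosome 7 circRNA was at 39.3 RPM in sham replicate 4 and at 37.6 to 37.8 RPM in the other sham libraries (ratio 0.839). In mTBI replicate 4, the chromosome 7 circRNA from 30714506 to 30735182 was at 18.7 RPM, with 11.9 to 12.5 RPM in the other mTBI libraries (ratio 0.914), and the share of the dominant circRNA was 66.1%, with 72.1% to 72.9% in those libraries (ratio 0.882).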

How the results depend on the processing

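None of the family circRNAs tested, 17 to 53 depending on the setting, passed an adjusted p of 0.05 under any setting run, with smallest adjusted p values of 0.579 to 0.995. The count over the whole table was 5 and depended on the setting: 10 with 4 times the pseudocount, 55 with no filter on listing, 0 with a mean of at least 10 reads (295 at an unadjusted p under 0.05), 1 without the variance trend, 10 after centring each library on its median, and 3 by limma voom. With a replicate block it was 0 (889 unadjusted), and 0 of the 28 family circRNAs passed. For shares and sums the paired test could not reach 0.05, since 4 pairs allow no p under 0.125. Leaving out 1 library gave 2 to 9, with 3 without mTBI replicate 1, 2 without mTBI replicate 3 and 9 without sham replicate 3. Scaled to summed circRNA RPM, the chromosome 7 dominant circRNA had a log2 change of 0.0018, above 0, and the coefficients of variation were 3.89% on chromosome 3 and 2.69% on chromosome 7. The share difference was 0.188 percentage points on the chromosome 2 plus strand over start-sharing circRNAs alone, and 0.0916 on chromosome 3 over end-sharing ones alone, both with the sign turned. Leaving out 1 library, the log2 change of the dominant circRNA ranged from 0.0268 to 0.0868 on the chromosome 2 plus strand, from -0.0983 to 0.0136 on chromosome 3 (above 0 without mTBI replicate 1 or sham replicate 1), from -0.0577 to 0.0155 on chromosome 7 (above 0 without mTBI replicate 2) and from -0.145 to 0.0393 on the chromosome 2 minus strand (above 0 without mTBI replicate 1 or 2 or sham replicate 1). The cause was not tested in any of these. Share differences kept their sign when any library was left out, at -0.787 to -0.216, -0.883 to -0.330, 2.22 to 4.998 and 0.402 to 1.10 percentage points for chromosome 2 plus, 3, 7 and 2 minus, and so did those of the summed others, at 0.188 to 0.510, 0.107 to 0.317, -4.57 to -1.68 and -0.511 to -0.135 RPM. Besides leaving out libraries, 81 results kept their direction and their side of the threshold or moved by less than the spread. The edgeR test was not run. No difference was resolved for circRNAs close to the smallest listed value.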

Other observations

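A few circRNAs outside the families use an end of a family member. The chromosome 2 plus-strand circRNA from 20488617 to 20555751 has the acceptor of the second circRNA of its family and a donor that was not listed with the dominant acceptor. It stood at 0.155, 0.180, 0.0912 and 0.195 RPM in mTBI replicates 1 to 4, and at 0.0517, 0.0524, 0.155 and 0.142 RPM in sham replicates 1 to 4. The 4 libraries in which the circRNA from 20488617 to 20531444 was above 1.5 RPM were also the 4 highest here. This likeness was noticed in the data and was not tested, and sham replicate 4 lies close below the higher set. On the chromosome 2 minus strand, the circRNA from 177973472 to 177992202 stood at 0.129, 0.154, 0.130 and 0.156 RPM in mTBI, and at 0.142, 0.197, 0.272 and 0.0774 RPM in sham. It ends 84 bases inside the acceptor end of the dominant circRNA, and the sham libraries held both its highest and its lowest value.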
